A study of Mus musculus with 6 samples.

Results

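NADPH oxidases are membrane enzymes that pass electrons from NADPH to oxygen and make superoxide or hydrogen peroxide. The 7 genes described here encode subunits of these enzymes, were taken by gene name from the deposited count table, and are 7 of its 56748 genes. They are Cybb, Nox1 and Nox4 (catalytic subunits), Cyba (the membrane partner of the catalytic subunit), Ncf1 and Ncf4 (cytosolic subunits) and Rac2 (a small GTPase). The libraries come from infarcted cortex of male wild-type C57 mice, with 3 libraries of the saline group and 3 of the group given PLEA nanoparticles. The labels do not say whether each library is from a different mouse. Both groups had a photochemically induced stroke in the left hemisphere, made with an intravenous agent at 100 mg/kg and a 532 nm laser of 250 mW and 1.5 mm width for 5 minutes, then 100 µL into a tail vein after 2 hours, and the tissue is from day 3 after treatment. The age of the mice, the agent and the meaning of PLEA were not given in the sources used here. There is no unlesioned group here, so all differences are between treatments of the same lesion.

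In the phagocyte form of the enzyme, the products of Cybb and Cyba sit together in the membrane, and the cytosolic subunits and Rac2 join them when the cell is activated. In brain this form is known from microglia, the resident phagocytes, and from macrophages and neutrophils that enter injured tissue, whereas Nox4 is active without cytosolic subunits and is known from vessel and other non-phagocyte cells. Nox1 is best known from colon epithelium and works with its own organizer and activator, encoded by Noxo1 and Noxa1.

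Promoter windows are shown for 4 members, because the phagocyte genes Cybb, Ncf1 and Cyba were high in the same library and Nox4 was not. The sequences are from RefSeq on GRCm38.p6, each 280 bases long with 250 bases before the annotated start and 30 after it, and RefSeq windows were at hand for 5 of the 7 members (Nox1 is the fifth). Capitals mark GAGGAA, the core of the binding motif of the myeloid factor PU.1, and GAAA followed by any 2 bases and GAAA again, a form of the interferon response element, both searched on either strand. The windows are chrX:9469295-9469574 (minus strand) for Cybb, chr5:134229596-134229875 (minus strand) for Ncf1, chr8:122432911-122433190 (minus strand) for Cyba and chr7:87246399-87246678 (plus strand) for Nox4.
Cybb: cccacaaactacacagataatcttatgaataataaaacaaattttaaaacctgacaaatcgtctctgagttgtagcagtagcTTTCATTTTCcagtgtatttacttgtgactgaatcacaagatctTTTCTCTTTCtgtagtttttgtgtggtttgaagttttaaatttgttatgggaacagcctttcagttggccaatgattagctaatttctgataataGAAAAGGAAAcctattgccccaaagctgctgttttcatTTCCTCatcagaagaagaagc
Ncf1: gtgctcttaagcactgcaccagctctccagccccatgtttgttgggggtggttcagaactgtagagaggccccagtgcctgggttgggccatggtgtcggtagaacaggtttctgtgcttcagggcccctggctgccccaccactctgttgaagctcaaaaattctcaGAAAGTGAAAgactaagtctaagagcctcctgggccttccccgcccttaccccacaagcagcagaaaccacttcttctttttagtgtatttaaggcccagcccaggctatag
Cyba: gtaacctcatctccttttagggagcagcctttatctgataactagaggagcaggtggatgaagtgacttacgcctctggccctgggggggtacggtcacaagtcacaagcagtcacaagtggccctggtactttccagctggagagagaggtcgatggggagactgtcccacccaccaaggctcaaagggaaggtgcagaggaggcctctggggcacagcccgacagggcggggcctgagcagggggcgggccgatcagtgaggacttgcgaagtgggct
Nox4: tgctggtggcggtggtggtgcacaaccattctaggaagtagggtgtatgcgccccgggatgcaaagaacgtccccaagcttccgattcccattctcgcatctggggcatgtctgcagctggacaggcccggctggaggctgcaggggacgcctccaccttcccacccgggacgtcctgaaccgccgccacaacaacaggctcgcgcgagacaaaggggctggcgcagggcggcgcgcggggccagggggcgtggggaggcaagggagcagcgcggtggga
The Cybb window held 1 match to GAGGAA, on the reverse strand 10 to 15 bases after the start, and 3 matches to the interferon motif. The Ncf1 window held 1 match to the interferon motif and none to GAGGAA, the Nox1 window held 1 match to GAGGAA, and the Cyba and Nox4 windows held no match to either. Of 32851 RefSeq windows of this length, 26% held GAGGAA, 3.28% held the interferon motif and 1.05% held both. These are matches of letters in a window and not measured sites.

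The phagocyte oxidase genes had their highest value in saline replicate 1, for 5 of 5 of them (Cybb, Cyba, Ncf1, Ncf4 and Rac2), while that library was the highest for 21.3% of all tested genes. The mean was lower in PLEA than in saline for these 5 and for Nox4, and higher for Nox1. No member in the test passed it. The test was edgeR's quasi-likelihood test with Benjamini-Hochberg adjustment over 17584 genes and a threshold of 0.05, and it called 0 of them, or 0%. DESeq2 called 0.0227% of tested genes higher and 0.21% lower at the same threshold, none of them members. In edgeR, adjusted p-values of the tested members lay between 0.818 and 0.91. Of the 7 members, 6 passed the filter on low counts and Nox1 did not. The 6 had negative log2 fold changes (PLEA minus saline), where 51% of all tested genes did and the median of all tested genes was -0.0051. Libraries held 16810448 to 17516434 counts, and levels are given as CPM, the counts scaled to the same TMM-adjusted library size, with totals of 74 to 941 counts per member over the 6 libraries.

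**Figure D1:**
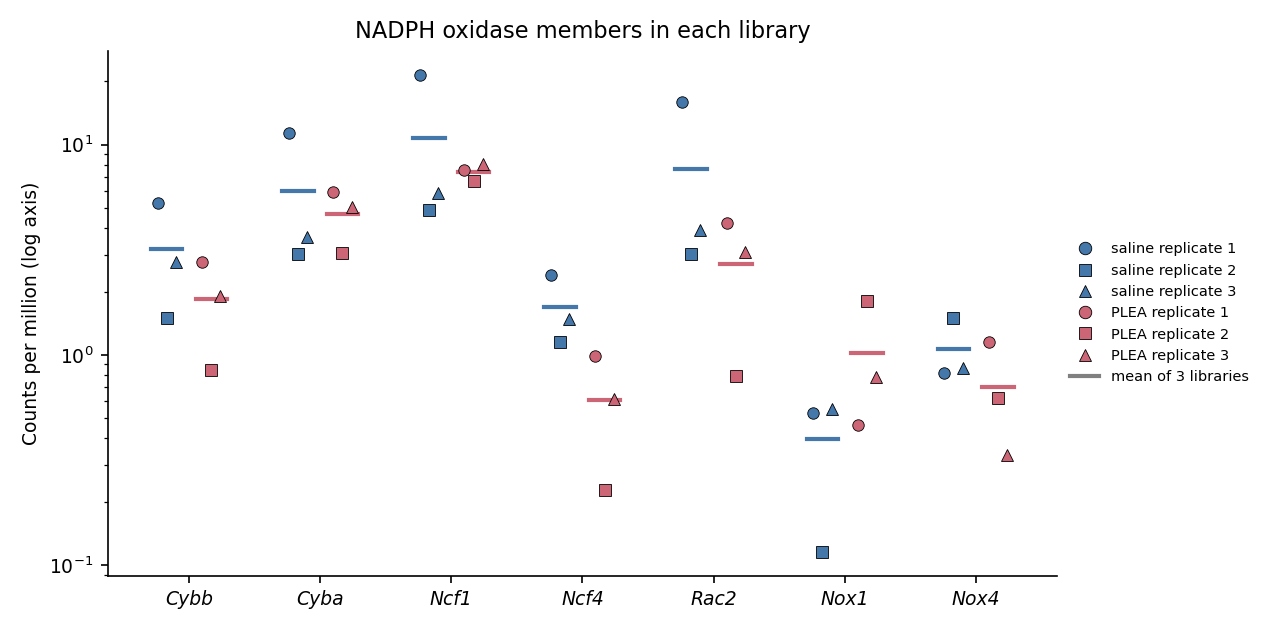
CPM on a log axis for the 7 members, with 1 point per library (blue saline, red PLEA, shape by replicate) and a bar at the mean of 3 libraries. Saline replicate 1 (blue circles) is the highest point for Cybb, Cyba, Ncf1, Ncf4 and Rac2, and Ncf4 is the member whose PLEA points all lie below its saline points.

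Cybb encodes the catalytic subunit of the phagocyte oxidase, the flavocytochrome that carries electrons across the membrane. The 3 saline libraries, in replicate order here and below, had 5.28, 1.50 and 2.77 CPM, and those of PLEA had 2.77, 0.85 and 1.90 CPM. The groups overlapped, with saline replicate 2 below PLEA replicates 1 and 3. Saline averaged 3.18 ± 1.92 CPM (SD, n = 3) and PLEA 1.84 ± 0.963 CPM (SD, n = 3), and edgeR put the log2 fold change at -0.79 (SE 0.54, adjusted p = 0.842). Without saline replicate 1 the log2 fold change was -0.20, and without PLEA replicate 2 it was -0.44. In the deposited table Cybb (ENSMUSG00000015340) spans bases 9301491 to 9354010 of chromosome X on the minus strand, printed with no build because the table's coordinates differ from those of the annotation used here. In bulk tissue, fewer cells of a type and less RNA per cell cannot be told apart.

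Cyba encodes the membrane partner that stabilises the catalytic subunits, that of Nox4 included. It was at 11.3, 3.01 and 3.63 CPM in saline and at 5.95, 3.06 and 5.03 CPM in PLEA. Saline replicate 1 stood above the other 5 libraries, and of the other saline libraries replicate 2 lay just below the PLEA range and replicate 3 within it. The log2 fold change was -0.36 (SE 0.51, edgeR adjusted p = 0.91) and turned to 0.51 (SE 0.34) without saline replicate 1. Cyba (ENSMUSG00000006519) spans bases 123151515 to 123159669 of chromosome 8 in the deposited table.

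Ncf1 encodes the organizer, the cytosolic subunit that is phosphorylated on activation and brings the others to the membrane. It was at 21.5, 4.91 and 5.91 CPM in saline and at 7.57, 6.69 and 8.05 CPM in PLEA. The 3 PLEA libraries lay close together and between saline replicate 1 above and the other saline libraries below. Means were 10.8 ± 9.32 CPM (SD, n = 3) and 7.44 ± 0.692 CPM (SD, n = 3), with a log2 fold change of -0.54 (SE 0.51, edgeR adjusted p = 0.871), which turned to 0.47 (SE 0.23) without saline replicate 1. Exons of Ncf1 share 408 of 3663 bases with Gtf2ird2, a gene on the other strand, and without a known strand setting reads of that stretch cannot be assigned. Gtf2ird2 as a whole had 14.7 CPM in saline replicate 1 and 17.1 CPM or higher elsewhere, and the part of the shared stretch in the Ncf1 values was not tested. Ncf1 (ENSMUSG00000015950) spans bases 134248907 to 134258479 of chromosome 5.

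Ncf4 encodes a cytosolic subunit that binds a membrane lipid of phagosomes. It had 41, 20 and 24 counts in saline and 17, 4 and 11 counts in PLEA, or 2.41, 1.16 and 1.48 CPM against 0.982, 0.227 and 0.615 CPM. Each PLEA library lay below each saline library. Ncf4 was the 1 member whose groups did not overlap, a pattern that 5.54% of tested genes had in that direction. The log2 fold change was -1.46 (SE 0.54, edgeR adjusted p = 0.818), and its unadjusted p of 0.0253 in edgeR was under 0.05, as for 3.58% of tested genes that were lower. The exact 95% Poisson interval of the count, which covers counting error only, was 9.9 to 27.2 in PLEA replicate 1 and 12.2 to 30.9 in saline replicate 2, so the 2 nearest libraries of the groups were within counting error. With any 1 library left out the log2 fold change lay between -1.99 and -1.07. Ncf4 (ENSMUSG00000071715) spans bases 78129001 to 78146780 of chromosome 15.

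Rac2 encodes a GTPase that completes the active phagocyte complex. It was at 16.0, 3.01 and 3.94 CPM in saline and at 4.22, 0.793 and 3.07 CPM in PLEA. The range over the 6 libraries was 20.2-fold, the widest among the members, from PLEA replicate 2 to saline replicate 1, and the other 4 libraries lay between 3.01 and 4.22 CPM with the groups overlapping. The log2 fold change was -1.50 (SE 0.74, edgeR adjusted p = 0.818), or -0.35 without saline replicate 1 and -1.07 without PLEA replicate 2. With neither of these in the fit, which was tried after the data had been seen, it was 0.071 for Rac2 and 0.13 for Cybb. Rac2 (ENSMUSG00000033220) spans bases 78443367 to 78456983 of chromosome 15.

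**Figure D2:**
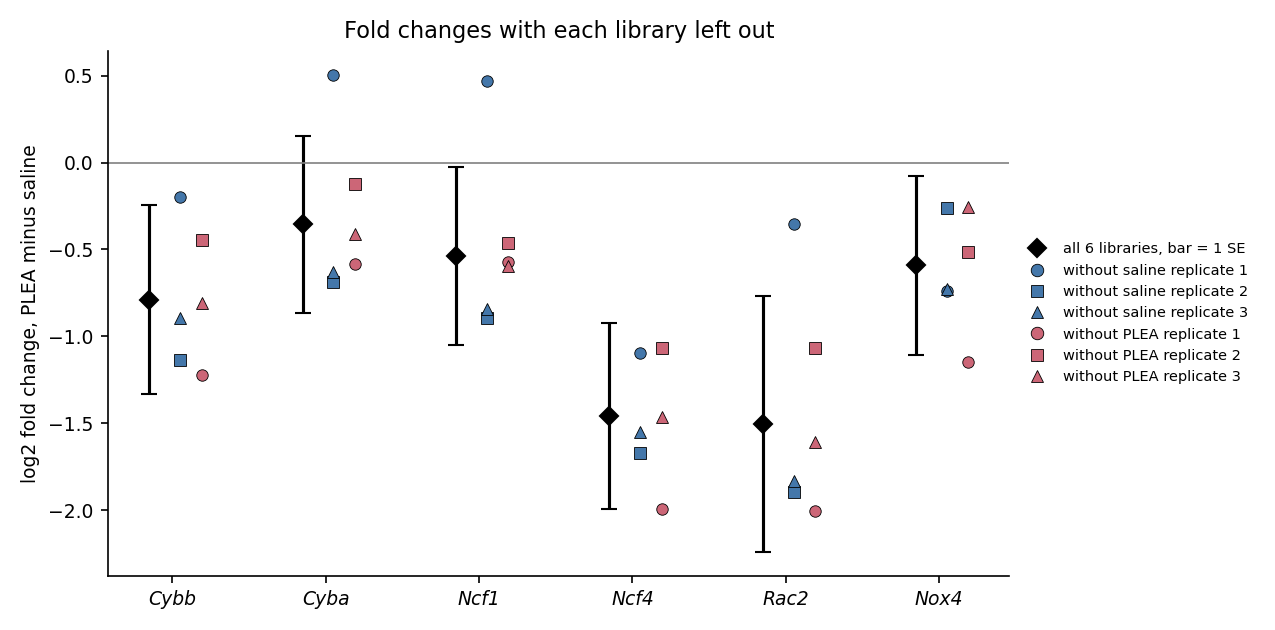
Log2 fold change (PLEA minus saline) of the 6 tested members, with a black diamond and a bar of 1 SE for all 6 libraries and coloured points for fits with 1 library left out. The points without saline replicate 1 (blue circles) lie at 0.51 for Cyba and 0.47 for Ncf1, above 0, whereas all points of Ncf4 lie at -1.07 or lower.

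Nox4 encodes a catalytic subunit that makes mainly hydrogen peroxide. It had 14, 26 and 14 counts in saline and 20, 11 and 6 counts in PLEA. The highest library was saline replicate 2 and the lowest PLEA replicate 3, so its order differed from that of the phagocyte genes. Its groups overlapped, with a log2 fold change of -0.59 (SE 0.51, edgeR adjusted p = 0.86), or -0.26 without saline replicate 2 and -1.15 without PLEA replicate 1. Nox4 (ENSMUSG00000030562) spans bases 86895304 to 87047918 of chromosome 7.

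Nox1 encodes a catalytic subunit that needs a cytosolic organizer and activator. It had 9, 2 and 9 counts in saline and 8, 32 and 14 counts in PLEA and failed the filter on low counts, so it was not in the main test. PLEA replicate 2, the lowest library for Cybb, Ncf4 and Rac2, was the highest for Nox1, with an exact 95% Poisson interval of 21.9 to 45.2 counts against 0.242 to 7.22 counts in saline replicate 2. The other 4 libraries had 8 to 14 counts, and the groups overlapped at 8 and 9 counts. Exons of Nox1 share 399 of 3307 bases with Cstf2, an abundant gene on the other strand at 143 to 190 CPM, and reads of Cstf2 cannot be told apart there without a known strand setting. Cstf2 was at 188 CPM in PLEA replicate 2 and at 190 CPM in saline replicate 2, the libraries where Nox1 was highest and lowest. These values are for the whole gene, and the part of the shared stretch in the Nox1 counts was not tested. Nox1 (ENSMUSG00000031257) spans bases 132987170 to 133122705 of chromosome X.

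Levels of different genes were compared as CPM per kb of gene model. Cyba had the highest mean over the 6 libraries at 5.13 CPM per kb, followed by Ncf1 at 2.49, Rac2 at 1.67, Ncf4 at 0.566, Cybb at 0.433, Nox1 at 0.214 and Nox4 at 0.104 CPM per kb. Cyba was above Ncf1, Ncf1 above Rac2 and Rac2 above Ncf4 in 6 of 6 libraries. Ncf4 was above Cybb in 4, Cybb above Nox1 in 5 and Nox1 above Nox4 in 5 of the 6, so the order among the 4 lowest genes was not the same in every library. In PLEA replicate 2 Nox1, at 0.548 CPM per kb, was above Rac2 at 0.256 CPM per kb. The ranges of each pair of neighbours overlapped between libraries. The length is that of all exons of a gene together, and Cyba has the shortest model with 1039 bases and Nox4 the longest with 8471.

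The ratio between members also differed between libraries. Ncf1 had 4.08, 3.27 and 2.13 times the CPM of Cybb in saline replicates 1 to 3 and 2.73, 7.87 and 4.24 times in PLEA replicates 1 to 3. Ncf4 had 0.456, 0.769 and 0.533 times the CPM of Cybb in saline and 0.354, 0.267 and 0.324 times in PLEA. Each PLEA ratio of Ncf4 to Cybb was below each saline ratio, while the ratios of Ncf1 to Cybb overlapped. The ratio of Cyba to Cybb did not overlap in the other direction, at 1.311 to 2.144 in saline and 2.146 to 3.6 in PLEA. Rac2 to Ncf1 was lower in PLEA without overlap (0.612 to 0.744 in saline, 0.119 to 0.557 in PLEA), and Rac2 to Cybb overlapped. The 15 counts of Cybb and the 4 counts of Ncf4 in PLEA replicate 2 limit the ratios of that library. The exact 95% Poisson interval of those 4 counts was 1.09 to 10.2, and Ncf4 had 17 and 11 counts in PLEA replicates 1 and 3. The differences in ratio were not tested, and the share of other gene pairs that do not overlap is not given here.

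Summed microglia and shared myeloid markers had their highest library in common with the 5 phagocyte oxidase genes. Their lowest library, PLEA replicate 2, was also the lowest for Cybb, Ncf4 and Rac2. For Cyba and Ncf1 the lowest was saline replicate 2. The summed CPM of 10 microglia markers was 820, 235 and 302 in saline and 395, 108 and 222 in PLEA, and that of 10 genes shared by myeloid cells was 705, 217 and 292 in saline and 367, 159 and 257 in PLEA. Both sums peaked in saline replicate 1 and were smallest in PLEA replicate 2, as were the astrocyte, endothelial and mural sums given below, so that order of libraries was not particular to phagocyte markers. In edgeR, 10 of 10 microglia genes and 9 of 10 shared myeloid genes had negative log2 fold changes (medians -1.0 and -0.88) and 0 of each passed. The exception was Coro1a (log2 fold change 0.22, SE 0.23). It was 55.9 of the 705 CPM of the shared myeloid sum in saline replicate 1 and 44.5 of the 159 CPM in PLEA replicate 2. The sum without Coro1a is not given here. Csf1r, the receptor that microglia need to survive, was at -0.66 (SE 0.40) on the log2 scale. The part of these markers in the differences of the oxidase genes was not tested.

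Monocyte and macrophage markers summed to 26.8 to 133 CPM in saline and 17.8 to 37.0 CPM in PLEA, with 4 of 10 genes passing the filter. Lyz2, a lysozyme gene of myeloid cells, reached 81.3 CPM in saline replicate 1, against 16.8 CPM or less elsewhere. Neutrophil markers summed to 7.57 to 27.2 CPM in saline and 3.00 to 8.61 CPM in PLEA, with 1 of 10 genes, Csf3r, passing the filter. Csf3r, the receptor for a granulocyte growth factor, was at 2.95 to 22.3 CPM and made up most of the sum outside saline replicate 3. It was 22.3 of 23.5 CPM in saline replicate 1 and 2.95 of 3.00 CPM in PLEA replicate 2. In saline replicate 3, which had the highest sum, Csf3r was at 7.69 CPM. The neutrophil granule genes Ngp and Ltf were highest in saline replicate 3, at 7.08 and 2.95 CPM, and Ngp had 0 counts in the 3 PLEA libraries. Csf3r, at 22.3 CPM, was highest in saline replicate 1, as the 5 phagocyte oxidase genes were. The part of monocyte and neutrophil markers in the differences of the oxidase genes was not tested. T and NK cell markers summed to 0.52 to 2.32 CPM and B cell markers to 0.113 to 1.06 CPM in any library, with Ms4a1 at 0 in all 6.

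Set against the microglia sum, Cybb was at 0.733% ± 0.158 (SD, n = 3) of it in saline and 0.782% ± 0.0776 (SD, n = 3) in PLEA, a difference smaller than the spread between replicates. Cyba was at 1.38%, 1.28% and 1.20% of the microglia sum in saline and at 1.51%, 2.83% and 2.27% in PLEA, where each PLEA library lay above each saline library. Ncf4 was at 0.293%, 0.492% and 0.488% in saline and at 0.249%, 0.21% and 0.277% in PLEA, where each PLEA library lay below each saline library. In these libraries Cyba was thus higher and Ncf4 lower in PLEA relative to this sum. The same order held against the shared myeloid sum, at 1.24% to 1.61% against 1.62% to 1.96% for Cyba and at 0.341% to 0.533% against 0.142% to 0.268% for Ncf4. The marker genes themselves had median log2 fold changes of -1.0 (microglia) and -0.88 (shared myeloid). A gene that fell less than its marker sum is higher on this scale, and Cyba in its own CPM was at -0.36. The nearest libraries of the groups were close, at 1.61% and 1.62% of the myeloid sum for Cyba and 0.293% and 0.277% of the microglia sum for Ncf4. That last value rests on 11 counts, with an exact 95% Poisson interval of 5.49 to 19.7. Rac2 overlapped between groups against the microglia sum (1.28% to 1.95% in saline, 0.734% to 1.39% in PLEA) and did not overlap against the shared myeloid sum (1.35% to 2.27% in saline, 0.499% to 1.20% in PLEA). Cybb and Ncf1 overlapped between groups against both sums. These ratios were not tested, and the share of all tested genes that do not overlap against the same sums is not given here.

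**Figure D3:**
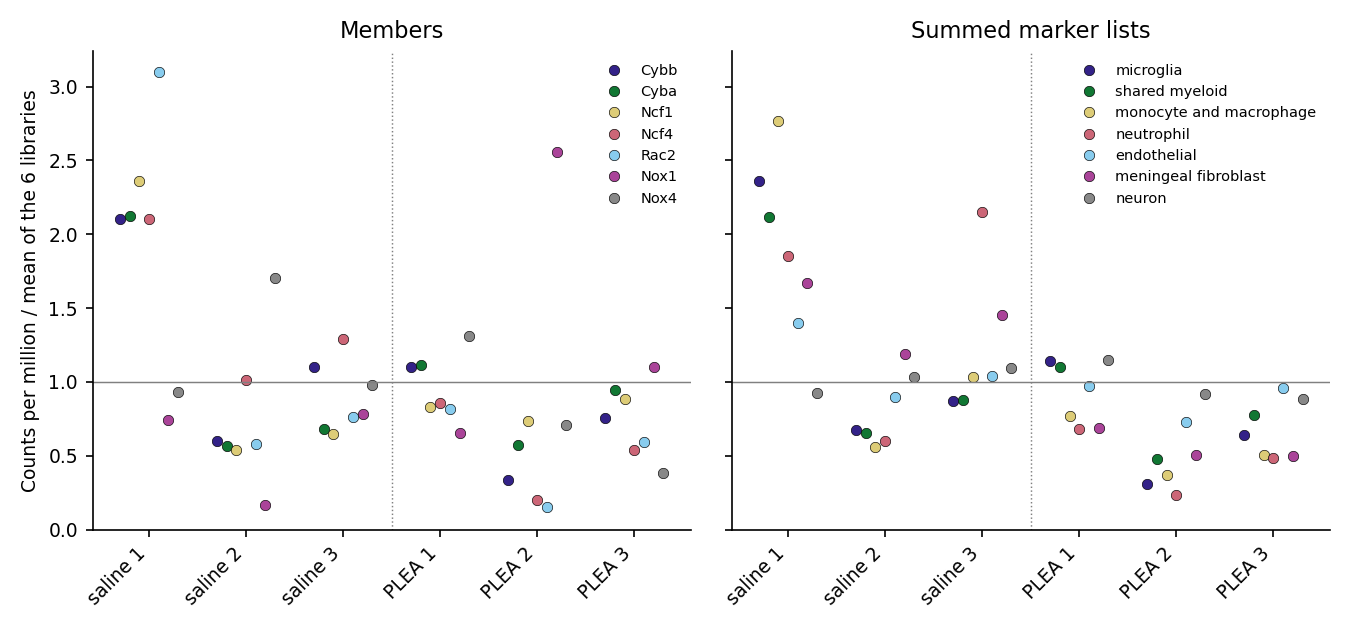
Left, each member's CPM divided by its mean over the 6 libraries. Right, the same for summed marker lists, with libraries along the axis and a dotted line between groups. Saline replicate 1 is the highest library for the 5 phagocyte genes. It is also the highest for the microglia, shared myeloid, monocyte, endothelial and meningeal fibroblast sums, but not for the neutrophil and neuron sums. Nox1 stands apart in PLEA replicate 2.

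Other cell types were summed in the same way. Astrocyte markers were at 6222, 3434 and 3868 CPM in saline and at 4029, 2908 and 3466 CPM in PLEA, with 6 of 6 log2 fold changes negative, a median of -0.51 and 0 past the edgeR test. Endothelial markers were at 244 to 382 CPM in saline and 199 to 266 CPM in PLEA, and mural markers at 260 to 402 and 220 to 259 CPM. These 3 sums were highest in saline replicate 1 and lowest in PLEA replicate 2, as Cybb, Ncf4 and Rac2 were. Oligodendrocyte markers were at 3084 to 4702 CPM in saline and 2198 to 3136 CPM in PLEA, highest in saline replicate 2, with 5 of 5 log2 fold changes negative and 0 past the edgeR test. For meningeal fibroblast markers the ranges were 99.5 to 139 and 41.5 to 57.7 CPM, with no overlap and the highest sum in saline replicate 1. Neuron markers, with 6265 to 7447 CPM in saline and 6022 to 7819 CPM in PLEA, overlapped and were present in every library, as the tissue label implies. Striatal markers summed to 87.6 CPM in saline replicate 2, against 510 CPM or more elsewhere, although the tissue is labelled cortex. The part of these markers in the differences of the oxidase genes was not tested.

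Other subunits and partners were measured in a list of 12 genes, of which 6 passed the filter, 0 passed the edgeR test and the median log2 fold change was 0.038. Rac1, the widely expressed relative of Rac2, was at 283 to 328 CPM in the 6 libraries, with a log2 fold change of -0.0062 (SE 0.12). Per kb, Rac1 averaged 68.2 CPM against 1.67 CPM for Rac2. Cybc1, the chaperone of the Cybb product, was at 18.1 to 19.8 CPM (log2 fold change -0.035, SE 0.12), Rac3 at 0.083 (SE 0.20) and Poldip2, which encodes a partner of Nox4, at 0.097 (SE 0.10) on the log2 scale. Rac1 and Cybc1 were not highest in saline replicate 1. Noxo1, the organizer for Nox1, averaged 0.808 CPM in saline and 0.87 CPM in PLEA, and Noxa1 had 0 counts in all 6 libraries. Nox3, Duox1, Duox2 and Duoxa1 were at 0.68 CPM or less in every library and Duoxa2 at 0.

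Genes that activate or accompany the oxidase formed a list of 20, all tested, with 16 negative log2 fold changes, a median of -0.50 and 0 past the edgeR test. Without saline replicate 1 that median was 0.13. At an unadjusted p under 0.05 in edgeR, 1 was higher (Prkcd, where 2.28% of tested genes were higher) and 1 lower (Rap1a, where 3.58% were lower). Prkcd encodes a protein kinase C that phosphorylates the organizer. It was at 25.6, 9.36 and 27.8 CPM in saline and at 37.2, 49.8 and 46.2 CPM in PLEA, with no overlap, as for 5.16% of tested genes in that direction (log2 fold change 1.09, SE 0.35, edgeR adjusted p = 0.818). Its lowest value was in saline replicate 2, the library lowest in striatal markers, and their part in the difference was not tested. Rap1a, which encodes a GTPase that copurifies with the flavocytochrome, was at 41.7 CPM or higher in saline and 36.6 CPM or lower in PLEA (log2 fold change -0.49, SE 0.16, edgeR adjusted p = 0.818). Such a lack of overlap was seen for 5.54% of tested genes in that direction. Itgam, the integrin of the complement receptor on phagocytes, was at -1.32 on the log2 scale (SE 0.71), or -0.28 without saline replicate 1. Tlr4, the receptor for bacterial lipopolysaccharide, was at -0.89 (SE 0.42), or -0.35 without saline replicate 1. Hvcn1, the proton channel that balances the charge moved by the oxidase, was at 2.76, 0.751 and 1.78 CPM in saline and 1.85, 0.68 and 1.17 CPM in PLEA (log2 fold change -0.51, SE 0.54).

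Enzymes that remove superoxide and peroxide numbered 14, all tested, with a median log2 fold change of -0.095 and 0 past the edgeR test. Catalase (Cat) was at 42.9 to 50.6 CPM in saline and 34.4 to 40.9 CPM in PLEA (log2 fold change -0.34, SE 0.13, edgeR adjusted p = 0.818). Its groups did not overlap, as for 5.54% of tested genes in that direction. Sod3, the extracellular superoxide dismutase, had a log2 fold change of -0.46 (SE 0.28), Gpx1, a glutathione peroxidase, 0.46 (SE 0.36) and Txnrd1, a thioredoxin reductase, 0.24 (SE 0.13). Sod1 and Sod2, the cytosolic and mitochondrial dismutases, were at -0.042 (SE 0.11) and -0.066 (SE 0.16). The dismutases and peroxidases in this list were not raised or lowered past the threshold.

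Other oxidant sources numbered 7, with 5 tested, a median of -0.14 and 0 past the edgeR test. The monoamine oxidases Maoa and Maob were at 46.7 to 52.0 and 24.4 to 29.8 CPM in saline and at 39.5 to 44.9 and 22.1 to 24.0 CPM in PLEA. Neither overlapped between groups, as for 5.54% of tested genes in that direction (log2 fold changes -0.26, SE 0.11, and -0.25, SE 0.13, edgeR adjusted p = 0.818 for both). Xdh, which encodes xanthine oxidoreductase, was at 0.47 (SE 0.40) on the log2 scale, and Nos1, the neuronal nitric oxide synthase, at -0.14 (SE 0.20). Mpo, the peroxidase of neutrophil granules, reached 1.72 CPM in saline replicate 3, against 0.173 CPM or less elsewhere.

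**Figure D4:**
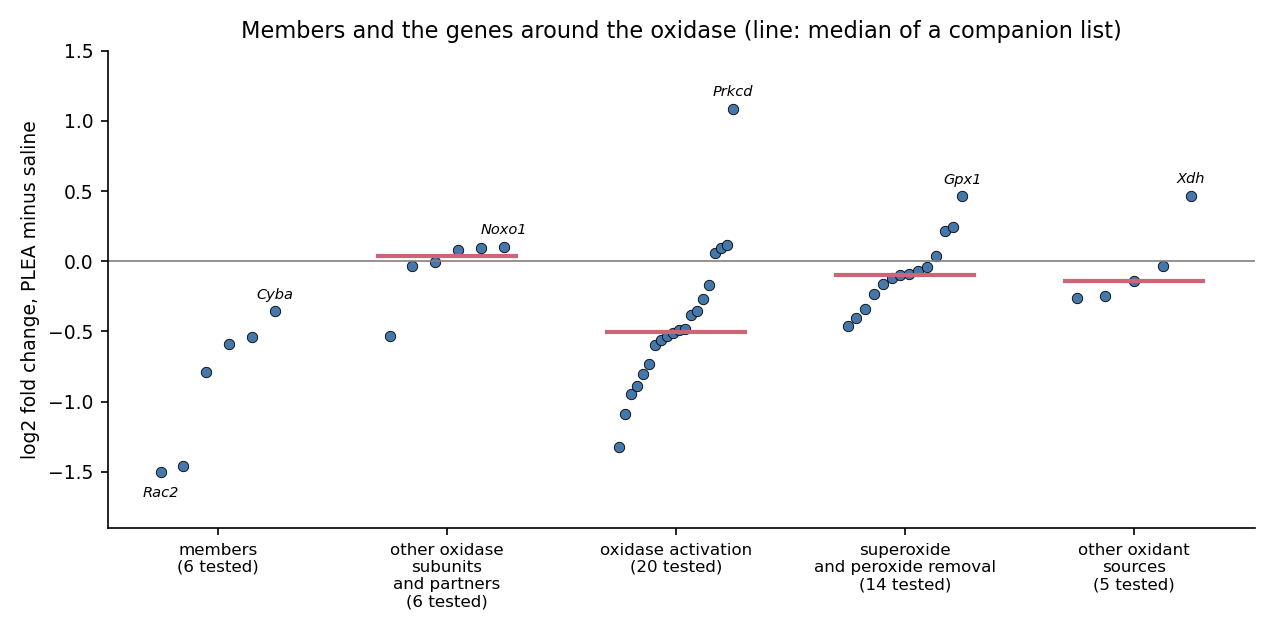
Log2 fold change (PLEA minus saline) of the 6 tested members and of the tested genes in 4 lists around the oxidase, sorted within each list, with a red line at a list's median and the highest gene of each list named, for the members also the lowest. The activation list has its median at -0.50 and Prkcd at 1.09 as its highest gene, and the other 3 lists have medians between -0.14 and 0.038.

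For each tested member, the 3 protein-coding genes whose log2 CPM followed it most closely over the 6 libraries were taken from 13036 genes, by Pearson r. These are the best of many genes over 6 points and are given as a description. They were Unc93b1, Tnfrsf11a and Fzd6 for Cybb (r of 0.996 to 0.992), Tlr13, Hnrnpf and Plin2 for Cyba (0.998 to 0.996) and Mospd2, Nfatc1 and Cotl1 for Ncf1 (0.997 to 0.992). Clec2d, Siglech and Rgs19 were closest to Ncf4 (0.996 to 0.991). Fcgr2b and Lgi4 were among those closest to Rac2 (0.997 and 0.996), and Idi1, Cept1 and Cdk14 were closest to Nox4 (0.998 to 0.990). Unc93b1, which carries toll-like receptors to endosomes, was at 33.0, 9.42 and 15.6 CPM in saline and 17.5, 5.95 and 11.5 CPM in PLEA, the same order of libraries as for Cybb. Siglech, a microglial surface lectin, was at 29.2, 10.6 and 15.6 CPM in saline and 11.3, 3.06 and 6.99 CPM in PLEA, again highest in saline replicate 1 and lowest in PLEA replicate 2. Idi1, an enzyme of isoprenoid synthesis, was highest in saline replicate 2 at 21.1 CPM and lowest in PLEA replicate 3 at 11.4 CPM, as Nox4 was. Among the members, Cybb and Rac2 were closest to each other (r of 0.967, or 0.936 without saline replicate 1). Of the 13036 other genes, 159 were past an r of 0.95 with Cybb and 199 with Rac2. Between Ncf1 and Ncf4 r was 0.475, or -0.40 without saline replicate 1.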

How the data were processed

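What the authors deposited was a single table of raw counts per gene, unnormalized per the file headers and values, with 1 column for each library. Builds GRCm38 and mm10 stand in the submitters' processing notes; no aligner, counter or strand setting was given in the sources used here. Titles gave the groups, saline and PLEA, with 3 libraries each. Nothing in the labels says that replicates came from different mice, so the spread behind each p may be technical. The members and lists were chosen with earlier results of these data known.

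The main test was the quasi-likelihood F test of edgeR 4.0.16 (R 4.3.3) with filterByExpr, TMM and group alone, where a standard error is the fold change over the square root of F. Log2 CPM for likeness used a prior count of 2 and a mean of at least 1. The fit was repeated with DESeq2 1.42.0, limma 3.58.1 voom, upper-quartile or RLE factors, removing the filter, requiring 1 CPM in 3 libraries, a replicate block and leaving out each library. Leaving out saline replicate 1 with PLEA replicate 2 was added after seeing the data. Scripts were tested on simulated data. The rule named all members, up to 4 genes with the smallest p in each companion list, Rac1, Cybc1 and Hvcn1, the most abundant gene of each marker list and the 3 genes closest to each tested member. Ngp, Ltf, Mpo, Sod1, Sod2, Noxo1 and the other genes named at or near 0 counts were chosen after their values were seen. Gene lengths are from the deposited table and exon overlaps from GENCODE M21. No libraries of a group agreed within sampling noise. Some genes that the rule named are not reported here.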

Additional observations from a re-analysis of the deposited data

How the results depend on the processing

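None of the 6 members of the main test passed the threshold in edgeR, DESeq2 or voom under any setting run, and DESeq2 gave no adjusted p for Ncf4 and Nox4. With DESeq2, 4 genes were called higher and 37 lower, and unfiltered edgeR gave 7 and 31 in those directions, none of them members; the cause was not tested. Nox1, tested only without a filter and with some libraries left out, had a log2 fold change of 1.32 (SE 0.63, edgeR adjusted p = 0.796) without a filter, and adjusted p-values of 0.541 to 0.853 with 1 library left out. Without a filter the median of other oxidant sources was -0.26, over 7 genes rather than 5. Leaving out 1 library gave 0 to 1 genes lower, log2 fold changes of -0.69 to 0.51 for Cyba and -0.90 to 0.47 for Ncf1, and medians of -0.041 to 0.054 for other subunits and partners and -0.71 to 0.13 for activation genes. The positive values of Cyba, Ncf1 and the activation genes came without saline replicate 1. With saline replicate 1 and PLEA replicate 2 both left out, 1 gene was lower, Cybb turned to 0.13, Cyba to 0.73, Ncf1 to 0.53 and Rac2 to 0.071, and the medians were -0.046 for other subunits and partners and 0.24 for activation genes. Ncf4 and Nox4 kept negative values under each setting that tested them. Same-numbered replicates deviated together in 2 of 3 pairs (r of 0.373, 0.173 and -0.018), so the numbers were not taken as pairs, and not every sample correlated best with its own number. With a replicate block edgeR called 0 genes higher and 0 lower, and Ncf4 was at -1.53 and Rac2 at -1.38 (adjusted p = 0.484 and 0.463). Depth limits Nox1, Nox4 and Ncf4, which had 2 to 41 counts per library.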
